A study of Homo sapiens with 24 samples.

Results

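The 9 genes described here form the receptor-proximal part of the TRAIL death pathway: the ligand gene TNFSF10, the 4 TRAIL receptor genes TNFRSF10A, TNFRSF10B, TNFRSF10C and TNFRSF10D, the adaptor gene FADD, the initiator caspase genes CASP8 and CASP10, and CFLAR, which encodes their inhibitor. They were taken by gene name, and all 9 were found among the 29639 genes of each of the 4 comparison tables that the authors deposited. Messenger RNA came from Rh30, an alveolar rhabdomyosarcoma line, and RD, an embryonal one; both tumour types resemble developing skeletal muscle. Each line was grown for 5 days with the solvent DMSO alone, with 0.5 µM SGI-110 (guadecitabine, a precursor of the DNA methyltransferase inhibitor decitabine), with dasatinib (an inhibitor of SRC and ABL family kinases), or with both drugs (the combination), with 3 libraries in each of 8 groups. Both drugs were dissolved in DMSO, which all groups therefore share. Below, dasatinib on top of SGI-110, or added to it, means the combination against SGI-110, not an order of dosing.

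TRAIL binds TNFRSF10A (DR4) and TNFRSF10B (DR5), whose intracellular death domains gather FADD, and FADD in turn gathers procaspase-8 and procaspase-10 through shared death effector domains. Caspases activated on this complex cut the effector caspases and BID. CFLAR (c-FLIP) resembles CASP8 but lacks protease activity and limits or modifies activation of CASP8 on the complex, while TNFRSF10C and TNFRSF10D bind TRAIL without a working death domain and act as decoys. Several of these genes, CASP8 among them, are known to be silenced by DNA methylation in childhood tumours, and the RNA data here do not measure methylation.

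The tables hold no value per library, so the spread of single libraries and the depth of each are unknown, and every error below is the standard error that the authors deposited. That error has the size given by 3 libraries per treatment: its maximum was 6.01 log2, against 6.01 calculated for 3 libraries and 4.25 for 6. Each table is taken to describe a single line, and its headers do not say which. Nothing in the sources used here ties the 3 libraries of a group to separate cultures beyond the word biological, and in RNA of a whole culture a rise in the share of expressing cells and a rise per cell cannot be told apart. Of 12 muscle lineage markers, all were in the tables, with mean normalised counts of 5182 for MYOD1, 5684 for MYOG and 6849 for DES per the authors' deposited table. In the single line that the changes describe, MYF6 had no measurable level in DMSO, and PAX7 none in DMSO or with dasatinib. Over all 24 libraries of both lines their mean normalised counts were 51.5 and 527 per the authors' deposited table. The list moved with treatment, with 7 higher and 2 lower under SGI-110, 1 higher and 6 lower under dasatinib, and 6 higher and 4 lower under the combination, per the authors' deposited table. Over all tested genes, 30.4% were higher and 17.1% lower under SGI-110. These shares were 17.8% and 13.2% under dasatinib, and 29.8% and 17.6% under the combination. Its part in the results below was not tested. Markers of lymphoid and myeloid cells were low, from 0.470 to 33.8 over the 9 genes listed, with the highest value for NKG7, per the authors' deposited table.

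The DNA methylation that SGI-110 inhibits falls mainly at CpG dinucleotides. RefSeq start-site windows (GRCh38.p14, 250 bases before to 50 after the start) are therefore shown for 4 members, with each CpG in capitals. They range from CpG-poor to CpG-dense, which sets out the sites for methylation in these windows only. The CASP8 window is chr2:201233213-201233512 and the CFLAR window chr2:201118466-201118765, both on the plus strand. The FADD window is chr11:70203046-70203345 on the plus strand and the TNFSF10 window chr3:172523381-172523680 on the minus strand, each printed 5′ to 3′.
CASP8: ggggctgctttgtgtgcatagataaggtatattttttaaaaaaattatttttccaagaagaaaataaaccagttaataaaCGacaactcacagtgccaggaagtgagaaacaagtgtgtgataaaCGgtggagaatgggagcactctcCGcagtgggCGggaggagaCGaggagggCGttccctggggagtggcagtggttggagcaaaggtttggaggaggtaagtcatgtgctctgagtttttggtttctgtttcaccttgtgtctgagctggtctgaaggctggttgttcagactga
CFLAR: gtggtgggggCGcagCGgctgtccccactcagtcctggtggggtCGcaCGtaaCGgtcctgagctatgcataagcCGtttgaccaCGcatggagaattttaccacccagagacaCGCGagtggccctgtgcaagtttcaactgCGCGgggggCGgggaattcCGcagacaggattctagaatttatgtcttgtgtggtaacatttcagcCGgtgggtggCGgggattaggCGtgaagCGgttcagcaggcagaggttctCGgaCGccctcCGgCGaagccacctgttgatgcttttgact
FADD: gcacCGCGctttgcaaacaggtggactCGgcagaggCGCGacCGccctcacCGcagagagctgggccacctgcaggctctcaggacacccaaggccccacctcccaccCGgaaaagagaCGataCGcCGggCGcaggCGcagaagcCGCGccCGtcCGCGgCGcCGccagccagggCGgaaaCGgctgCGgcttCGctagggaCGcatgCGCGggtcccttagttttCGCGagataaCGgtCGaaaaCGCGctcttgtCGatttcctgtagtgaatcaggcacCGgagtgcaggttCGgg
TNFSF10: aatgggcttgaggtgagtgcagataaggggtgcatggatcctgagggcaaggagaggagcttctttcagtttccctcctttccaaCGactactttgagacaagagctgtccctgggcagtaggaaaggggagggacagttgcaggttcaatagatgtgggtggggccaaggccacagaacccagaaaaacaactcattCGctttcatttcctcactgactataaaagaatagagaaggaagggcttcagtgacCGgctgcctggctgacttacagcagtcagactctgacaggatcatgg

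FADD had the densest window, with 36 CpG, a number reached by 12.7% of the 35116 windows in the RefSeq table, whose median was 14. The CFLAR window above held 21, and of the other 3 CFLAR start sites 1 held 22, 1 held 1 and 1 held none. The 3 CASP8 start sites were CpG-poor, with 6, 5 and 6, and TNFSF10 had 3, below the lower quartile of 4. The interferon element, searched on both strands as GAAA followed after any 2 bases by GAAA, matched 1 time in the CASP8 window shown and 1 time in that of TNFSF10, and in none of the other 7 member windows. It was present in 3.57% of all windows. CASP10 and the 4 receptor genes are given by name only.

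The first question is what each receptor gene did under the demethylating drug. Of the 4 TRAIL receptors, TNFRSF10D (DcR2) and TNFRSF10A rose steeply with SGI-110, while TNFRSF10B and TNFRSF10C did not pass the threshold. All 4 genes lie next to each other on chromosome 8. Over the 9 members, 6 rose with SGI-110 and none fell at an adjusted p under 0.05 per the authors' deposited table. Among all 28489 genes tested, 30.4% were higher and 17.1% lower, 47.5% in either direction, so 6 of 9 is to be read against that background.

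TNFRSF10D, which encodes a decoy receptor with a truncated death domain (GRCh38, chromosome 8, 23135588 to 23164030, minus strand), rose by 8.36 ± 0.49 log2 with SGI-110 (adjusted p = 4.87e-64) per the authors' deposited table. It stood 8.05 ± 0.49 above DMSO with the combination (adjusted p = 1.90e-59) per the authors' deposited table. With dasatinib alone its value was -1.36 ± 0.87 (adjusted p = 0.253) per the authors' deposited table. In the line that the changes describe, the gene thus had a low level in the groups without SGI-110 and a high one in the groups with it. Adding dasatinib to SGI-110 lowered it slightly, by a log2 change of -0.31 ± 0.08 (adjusted p = 0.00109), per the authors' deposited table.

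TNFRSF10A, one of the receptors with a death domain (chromosome 8, 23190452 to 23225126, minus strand), had no measurable level in DMSO. Such a call was made when the standard error of a group was at or near 1.18 log2 or above, the value that 3 libraries give at the model's lowest fitted level of 0.5 counts. Its adjusted p was 2.08e-09 for SGI-110 and 1.26e-06 for the combination against DMSO per the authors' deposited table, and no fold change against DMSO is given. Dasatinib lowered it in the presence of SGI-110, by a log2 change of -1.32 ± 0.33 (adjusted p = 0.00042), per the authors' deposited table. Dasatinib alone did not separate it from DMSO (adjusted p = 0.481) per the authors' deposited table.

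TNFRSF10B, the other receptor with a death domain (chromosome 8, 23020133 to 23069179, minus strand), followed dasatinib instead. It stood at -0.09 ± 0.07 with SGI-110 (adjusted p = 0.310; 95% interval -0.22 to 0.05) per the authors' deposited table. It fell with dasatinib (-0.44 ± 0.07, adjusted p = 1.36e-09) and with the combination (-0.66 ± 0.07, adjusted p = 1.29e-21) per the authors' deposited table. The fall was also present when dasatinib was added to SGI-110 (-0.58 ± 0.07, adjusted p = 3.79e-16) per the authors' deposited table. TNFRSF10B was the one member below DMSO past the threshold in the combination.

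TNFRSF10C, a decoy held in the membrane by a lipid anchor (chromosome 8, 23102590 to 23117437, plus strand), fell with dasatinib (-1.01 ± 0.24, adjusted p = 0.000204) per the authors' deposited table. It stood at 0.24 ± 0.21 with SGI-110 (adjusted p = 0.381; 95% interval -0.18 to 0.66) per the authors' deposited table. With the combination it stood at -0.28 ± 0.22 (adjusted p = 0.324) per the authors' deposited table. Against SGI-110 alone the combination was at -0.52 ± 0.22 (adjusted p = 0.0513), per the authors' deposited table. Recomputed here with changes centred on the median gene, it passed (adjusted p = 0.0428). Reads that fit more than one of the 4 related receptor genes may have been assigned unevenly, as the counting rule for such reads is not given in the sources used here.

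TNFSF10, the ligand gene (chromosome 3, 172505508 to 172523507, minus strand), had no measurable level in any of the 4 treatments, with a mean normalised count of 1.52 per the authors' deposited table. Its adjusted p was 0.822 for SGI-110 and 0.520 for the combination per the authors' deposited table, and none was given for the other 2 deposited comparisons. A change in the ligand was not detectable at this level.

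**Figure D1:**
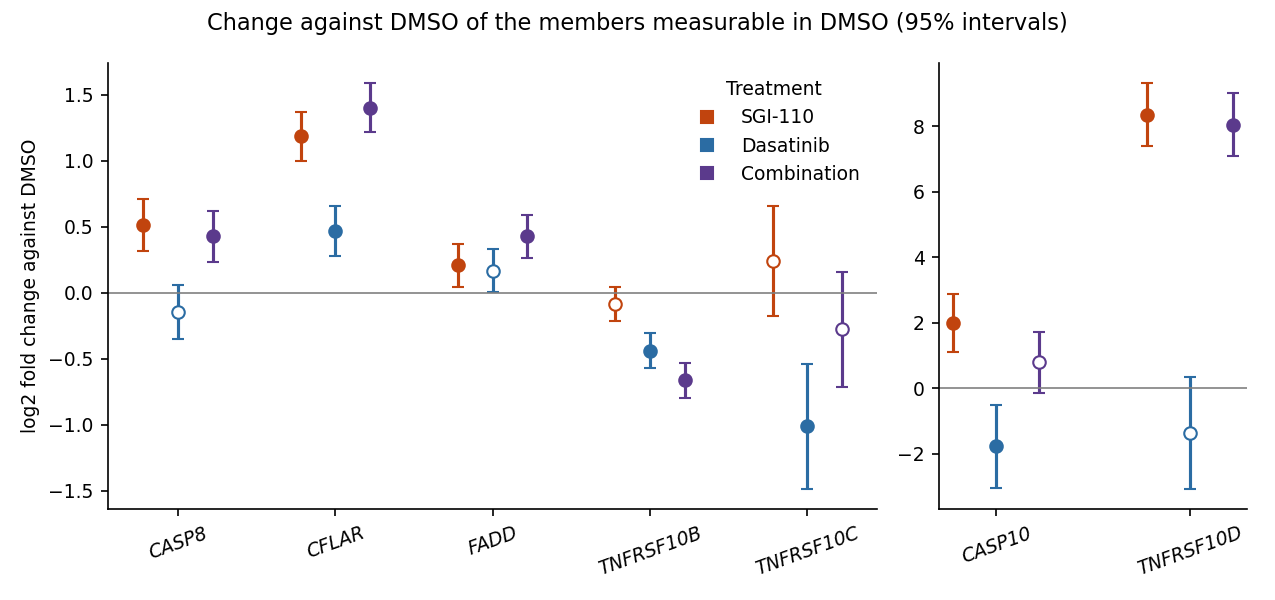
log2 fold change against DMSO (vertical axis) of the 7 members with a measurable DMSO level under SGI-110, dasatinib and the combination; points are fitted changes, bars 95% intervals from the deposited standard errors, and filled points passed an adjusted p under 0.05. The right panel has a wider scale: TNFRSF10D stands at 8.36 with SGI-110 and 8.05 with the combination, while TNFRSF10B is past the threshold only below DMSO.

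Of the intracellular genes, CFLAR (chromosome 2, 201116104 to 201176687, plus strand), the inhibitor, rose in each of the 3 treatments. It stood at 1.19 ± 0.09 with SGI-110 (adjusted p = 8.21e-35) and 0.47 ± 0.10 with dasatinib (adjusted p = 1.13e-05) per the authors' deposited table. The combination had the highest level, at 1.40 ± 0.09 or 2.64-fold over DMSO (adjusted p = 9.05e-49), per the authors' deposited table. The step from SGI-110 to the combination was 0.22 ± 0.09 (adjusted p = 0.0474) per the authors' deposited table. That step did not pass with p adjusted over all genes without a filter on low levels (0.0616), or when changes were centred on the median gene (0.0739).

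CASP8 (chromosome 2, 201233443 to 201287711, plus strand), the initiator caspase, rose with SGI-110, alone or in the combination. It stood at 0.51 ± 0.10 with SGI-110 (1.43-fold, adjusted p = 1.10e-06) and 0.43 ± 0.10 with the combination (1.34-fold, adjusted p = 7.99e-05) per the authors' deposited table. Dasatinib alone gave -0.14 ± 0.10 (adjusted p = 0.319), and dasatinib on top of SGI-110 gave -0.09 ± 0.10 (adjusted p = 0.547), per the authors' deposited table. Its 95% interval for the second of these ran from -0.27 to 0.10. Whether the rise of CFLAR exceeded that of CASP8 was not tested.

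CASP10 (chromosome 2, 201182881 to 201229406, plus strand), the related initiator caspase, moved up with SGI-110 and down with dasatinib. It rose by 1.99 ± 0.45 with SGI-110 (adjusted p = 3.59e-05) and fell with dasatinib (-1.77 ± 0.64, adjusted p = 0.0232) per the authors' deposited table. With both drugs it stood at 0.80 ± 0.47 (adjusted p = 0.161) per the authors' deposited table. Against SGI-110 alone the combination was lower, at -1.19 ± 0.40 (adjusted p = 0.0133), per the authors' deposited table. Its mean normalised count was 12.4 per the authors' deposited table. Both falls with dasatinib were lost with a t distribution of 8 degrees of freedom in place of the Wald normal (adjusted p = 0.0955 and 0.0768).

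FADD (chromosome 11, 70203163 to 70207390, plus strand), the adaptor, had the smallest change of the 6 members that rose with SGI-110. It stood at 0.21 ± 0.08 with SGI-110 (adjusted p = 0.0269), 0.17 ± 0.08 with dasatinib (adjusted p = 0.117) and 0.43 ± 0.08 with the combination (adjusted p = 1.12e-06) per the authors' deposited table. The combination was also above SGI-110 alone (0.22 ± 0.08, adjusted p = 0.0258) per the authors' deposited table. Neither the SGI-110 value nor the step from SGI-110 to the combination passed when the Wald statistic was referred to that t distribution (adjusted p = 0.0818 and 0.100).

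Counted over the 9 members, dasatinib alone had 1 higher (CFLAR) and 3 lower (TNFRSF10B, TNFRSF10C and CASP10), with 31.0% of all tested genes called, 17.8% higher and 13.2% lower, per the authors' deposited table. The combination had 5 higher and 1 lower against DMSO, with 47.4% of all tested genes called, 29.8% higher and 17.6% lower, per the authors' deposited table. Dasatinib on top of SGI-110 had 2 higher (CFLAR and FADD) and 4 lower (CASP10, TNFRSF10A, TNFRSF10B and TNFRSF10D), with 31.2% of all tested genes called, 14.2% higher and 17.0% lower, per the authors' deposited table. The median over the 7 members measurable in both groups was 0.51 for SGI-110, -0.44 for dasatinib and 0.43 for the combination, beside 0.04, 0.01 and 0.04 over all genes measured in the same way, computed here from the authors' deposited table. These 3 comparisons share their DMSO libraries.

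The level of each member in each treatment can be estimated from the standard errors, because the error of a group in a negative binomial fit falls with its count. The estimates are back-calculated values that assume 3 libraries of equal size and 1 dispersion per gene. Over the 14405 genes solved in this way among those with a mean normalised count of 20 or more, the estimates of the 4 treatments added up to a median of 56.3% of the deposited total of all 24 libraries. For 10.2% of them the sum was above that total, which cannot be, so single values are approximate.

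TNFRSF10D was estimated at 3.22 counts per library in DMSO and 1.26 with dasatinib, against 1057 with SGI-110 and 854 with the combination. The size of its fold change therefore rests on a handful of reads in the DMSO libraries. TNFRSF10A was at the floor of 0.5 counts or below in DMSO and at 0.665 with dasatinib, against 40.2 with SGI-110 and 16.1 with the combination. Both receptors were thus near or at the floor in the groups without SGI-110 of the line that the changes describe. Their levels in the other line without SGI-110 are not known.

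CASP10 was estimated at 9.87 counts per library in DMSO and 2.90 with dasatinib, against 39.1 with SGI-110 and 17.2 with both drugs. TNFRSF10C was at 65.4 in DMSO and 77.3 with SGI-110, against 32.4 with dasatinib and 53.9 with both drugs. CASP8 was at 286 in DMSO and 408 with SGI-110, so by this estimate its transcript was present without either drug. CFLAR went from 464 in DMSO to 1227 with the combination, FADD from 534 to 718, and TNFRSF10B from 7299 down to 4605.

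**Figure D2:**
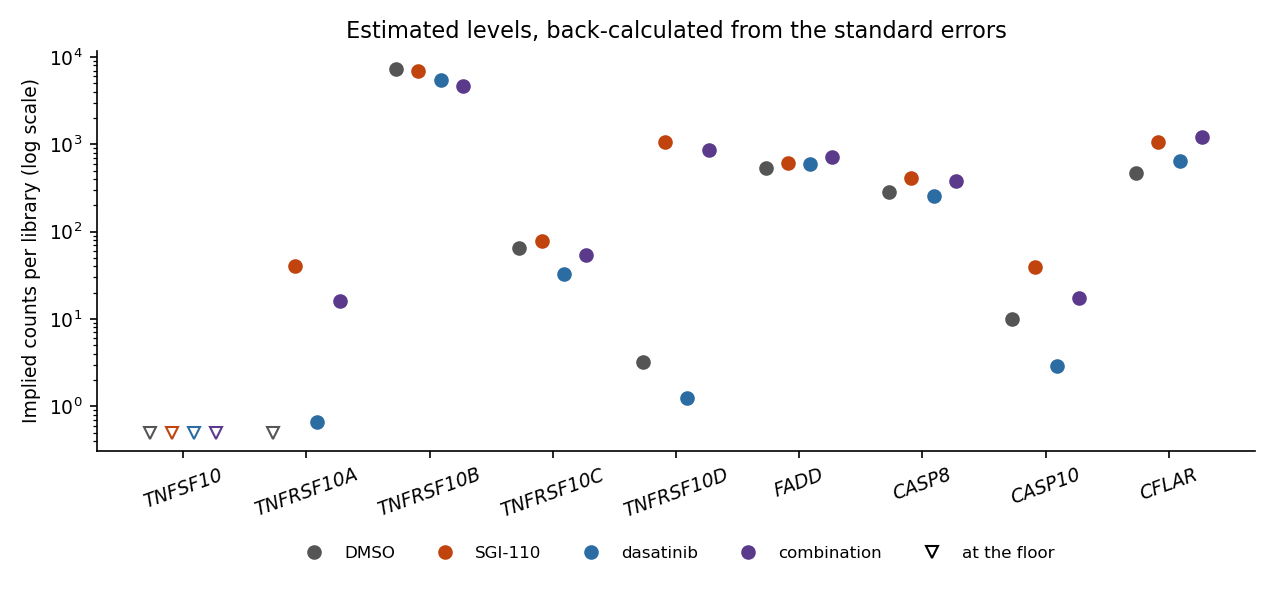
Estimated counts per library (vertical axis, log scale) of the 9 members in the 4 treatments, back-calculated from the deposited standard errors; open triangles mark groups at or below the lowest fitted level of 0.5 counts. TNFRSF10D and TNFRSF10A are high in the SGI-110 and combination groups, and TNFSF10 is at the floor in all 4.

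Per kilobase of annotated exon, the mean normalised count over all 24 libraries of both lines was highest for TNFRSF10B, at 855, followed by FADD at 293. These values are the authors' deposited counts divided here by exon length. TNFRSF10D followed at 81.7, CFLAR at 63.4 and CASP8 at 56.9, computed in the same way. TNFRSF10C stood at 22.9, TNFRSF10A at 7.60, CASP10 at 1.64 and TNFSF10 at 0.438, also computed here from the deposited counts. These means pool all treatments, and TNFRSF10D, estimated at 3.22 counts per library in DMSO beside 464 for CFLAR and 286 for CASP8, stands above both through the groups with SGI-110. No spread over libraries is available for these levels, so neighbours in this order cannot be told apart. The exon length of CFLAR, 22529 bases over all its annotated transcripts, is long and lowers its value per kilobase.

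A further question is how the combination differed from dasatinib alone. Against dasatinib alone, the combination had 7 members higher and 1 lower (Wald test computed here, adjusted p under 0.05), with 43.2% of all genes called, 26.6% higher and 16.5% lower. TNFRSF10D stood at 9.41 ± 0.73 (adjusted p = 9.32e-37) and TNFRSF10A at 4.60 ± 1.06 (adjusted p = 6.49e-05), each against a dasatinib level near the floor, in this computed Wald test. CASP10 rose by 2.56 ± 0.61 (adjusted p = 0.000124), CFLAR by 0.94 ± 0.09 (adjusted p = 2.04e-23) and CASP8 by 0.57 ± 0.10 (adjusted p = 6.97e-08) in the computed Wald test. TNFRSF10C was higher by 0.73 ± 0.24 (adjusted p = 0.0076) and FADD by 0.26 ± 0.08 (adjusted p = 0.00432). TNFRSF10B was the one that fell (-0.23 ± 0.07, adjusted p = 0.00269). When no credit was given for the shared DMSO libraries, the calls of FADD, TNFRSF10A, TNFRSF10B and TNFRSF10C were lost (adjusted p from 0.0604 to 0.0855).

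The change with dasatinib was then compared between cells without and with SGI-110. None of the 9 members passed this interaction test (computed Wald test, adjusted p under 0.05), and none had an unadjusted p under 0.05, while 14.6% of all genes passed, 6.09% upward and 8.49% downward. For CASP8 the difference between both changes was 0.06 ± 0.14 (95% interval -0.22 to 0.33), and for FADD it was 0.05 ± 0.12 (-0.18 to 0.28). For CFLAR it was -0.25 ± 0.13 (-0.51 to 0.01) and for TNFRSF10B -0.14 ± 0.10 (-0.33 to 0.05). The intervals of TNFRSF10C (-0.14 to 1.13), CASP10 (-0.92 to 2.07) and TNFRSF10D (-0.66 to 2.76) were wide, so sizeable differences remain possible for these genes. Wider still were those of TNFRSF10A (-6.13 to 0.17), unmeasurable in DMSO, and TNFSF10 (-4.44 to 6.82), unmeasurable in every treatment. For TNFRSF10A and TNFSF10 the test could not decide, though both are counted among the 9. The test takes dasatinib against DMSO to come from the same fit as the other tables. In 1043 genes the standard errors of dasatinib and of SGI-110 against DMSO were equal within a relative tolerance of 1e-06 per the authors' deposited table.

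**Figure D3:**
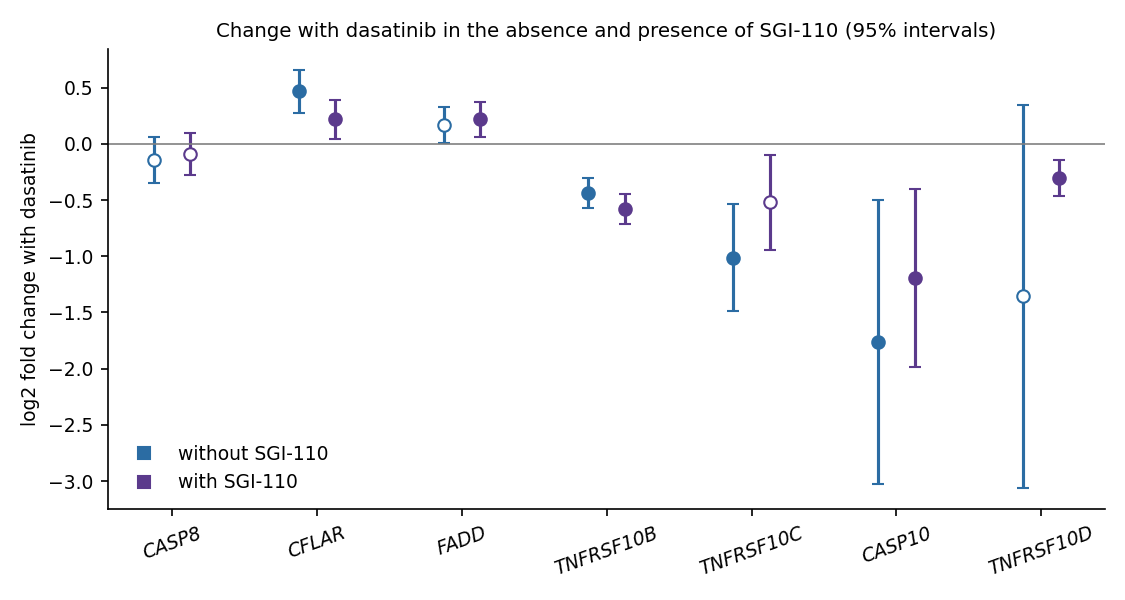
log2 fold change with dasatinib (vertical axis) for 7 members, without SGI-110 (dasatinib against DMSO) and with it (combination against SGI-110); bars are 95% intervals from the deposited standard errors and filled points passed an adjusted p under 0.05. TNFRSF10B stands at -0.44 and -0.58, and no pair differed past the threshold of the interaction test.

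The genome around the members was examined next. CFLAR, CASP10 and CASP8 lie side by side on chromosome 2, and all 3 rose with SGI-110. Of the 14 neighbours found in the tables within 250 kb, 2 rose and 1 fell, beside 30.4% and 17.1% of all genes, per the authors' deposited table. Several of the 14, such as RNU6-762P and RNU7-45P, were near the floor, and members and neighbours were not compared by a test. CFLAR-AS1 runs antisense within CFLAR and rose by 3.51 ± 1.19 (adjusted p = 0.00832), at a mean normalised count of only 3.39, per the authors' deposited table. IMPDH1P10, a pseudogene within CFLAR on the other strand, rose by 3.77 ± 1.18 (adjusted p = 0.00376), at a mean of only 4.02, per the authors' deposited table. RNU7-45P, also within CFLAR, had no measurable level. The kit keeps strand, but whether counting used it is not given in the sources used here, so reads of CFLAR and of these overlapping genes may not be fully separate.

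Around the receptor cluster on chromosome 8, all 5 neighbours found in the tables were higher with SGI-110, beside 30.4% of all genes, per the authors' deposited table. RHOBTB2, which overlaps TNFRSF10B at one end, stood at 0.20 ± 0.08, CHMP7 at 0.17 ± 0.07 and R3HCC1 at 0.53 ± 0.08 per the authors' deposited table. LOXL2, a lysyl oxidase of the matrix that was singled out after its value was seen, had the highest value of the 5 at 1.63 ± 0.08 per the authors' deposited table. TNFRSF10B and TNFRSF10C, which lie between RHOBTB2 and TNFRSF10D, were the genes of this stretch found in the tables that did not pass the threshold. Within 250 kb of FADD, ANO1 rose by 4.25 ± 1.13 (adjusted p = 0.000555) and PPFIA1 fell by 0.14 ± 0.05, written as log2 changes, per the authors' deposited table. ANO1 was low, with a mean normalised count of 5.48 per the authors' deposited table. MIR548K had no measurable level with dasatinib or with the combination. Near TNFSF10, NCEH1 stood at 0.49 ± 0.12 and ECT2 at 0.15 ± 0.06 with SGI-110 per the authors' deposited table, and BZW1P1 had no measurable level. Of 73 annotated neighbours in all, 26 were matched by name, and the others may carry other names in the tables.

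**Figure D4:**
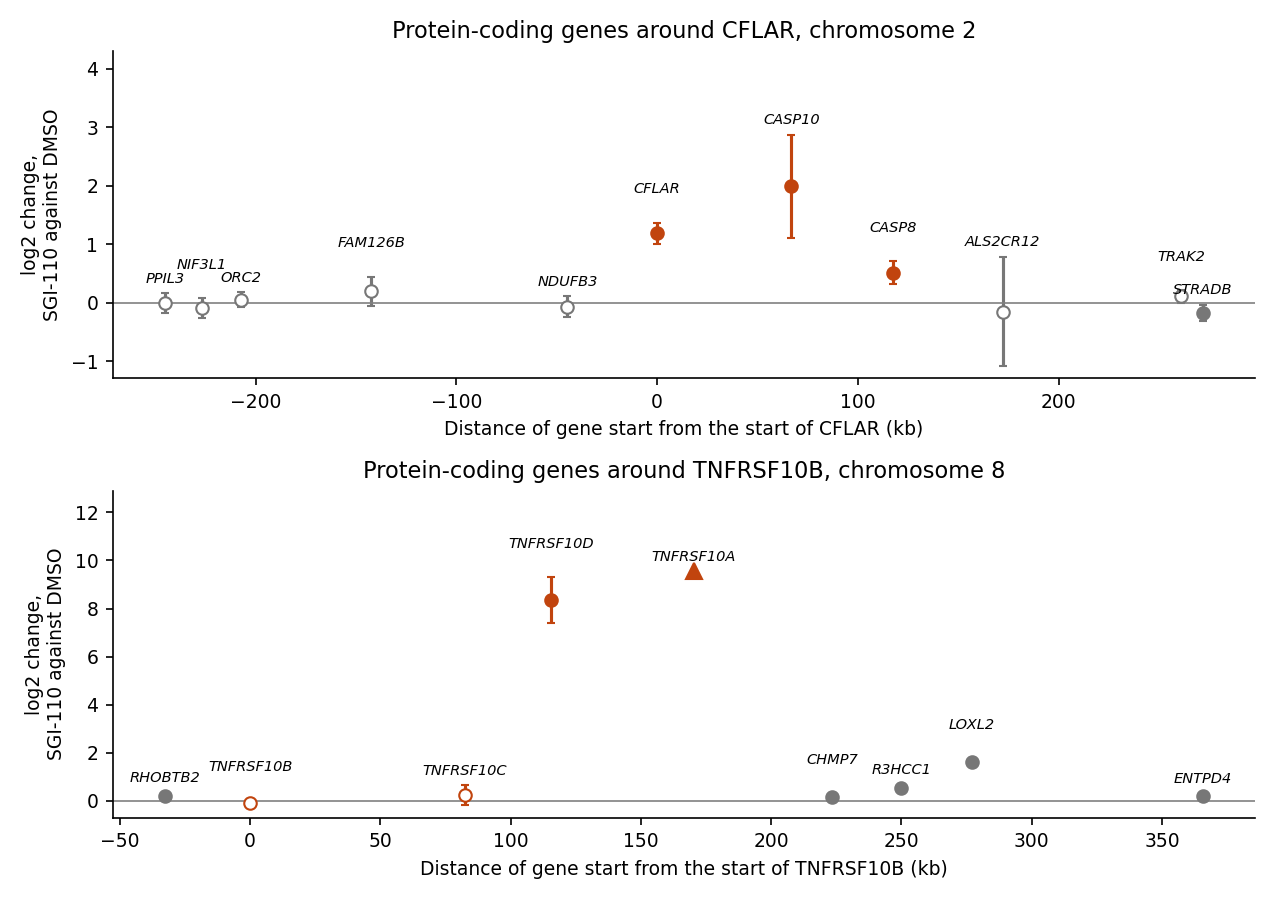
log2 fold change of SGI-110 against DMSO (vertical axis) for protein-coding genes by the distance of their annotated start from CFLAR (top) or TNFRSF10B (bottom), in kilobases; members are in orange, other genes in grey, bars are 95% intervals, filled points passed an adjusted p under 0.05, and the triangle marks TNFRSF10A, which had no measurable DMSO level and whose height is not a value. CFLAR, CASP10 and CASP8 stand above their neighbours, and TNFRSF10D at 8.36 stands above TNFRSF10C at 0.24.

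Other genes of the extrinsic pathway were counted from 3 lists. Of 8 other death receptors and ligands found in the tables, 4 rose with SGI-110 and none fell, beside 30.4% and 17.1% of all tested genes, per the authors' deposited table. FAS, the receptor of the related FAS ligand, rose by 2.81 ± 0.65 (adjusted p = 6.5e-05) and TNFRSF21 (DR6) by 0.34 ± 0.07 (adjusted p = 1.72e-05) per the authors' deposited table. The cytokine genes TNF (3.16 ± 1.18) and TNFSF15 (2.56 ± 1.03) were the others that rose, both at mean normalised counts of at most 5.03, per the authors' deposited table. With dasatinib TNFRSF21 rose by 0.59 ± 0.07, and TNFRSF25 (-1.61 ± 0.19) and NGFR (-0.30 ± 0.08) fell, per the authors' deposited table. On top of SGI-110, dasatinib left TNFRSF21 at 0.01 ± 0.07 and NGFR at 0.06 ± 0.08 per the authors' deposited table. Both passed the interaction test (computed Wald test), TNFRSF21 at -0.58 ± 0.10 (adjusted p = 3.56e-07) and NGFR at 0.37 ± 0.11 (adjusted p = 0.0124). The list's median under SGI-110 was 0.16, beside 0.04 over all measured genes, computed here from the authors' deposited table.

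In the combination, 3 of these 8 genes were higher and 3 lower than in DMSO, beside 29.8% and 17.6% of all tested genes, per the authors' deposited table. FAS stood at 3.49 ± 0.64, TNFRSF21 at 0.35 ± 0.07 and TNFSF15 at 2.82 ± 1.03, and TNFRSF25 at -1.29 ± 0.18, TNFRSF1A at -0.29 ± 0.08 and EDA2R at -1.14 ± 0.34, per the authors' deposited table. FAS was low in absolute terms, with a mean normalised count of 9.09 per the authors' deposited table. Dasatinib on top of SGI-110 lowered TNFRSF25 (-1.27 ± 0.18) and TNFRSF1A (-0.20 ± 0.08) per the authors' deposited table. TNF passed the threshold downward in that comparison (adjusted p = 0.000528), with no measurable level in the combination, per the authors' deposited table.

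Adaptors and regulators of the receptor complex moved in both directions, with 4 of 15 higher and 4 lower under SGI-110, per the authors' deposited table. Beside them, 30.4% of all tested genes were higher and 17.1% lower. The list's median, computed here from the deposited values, was -0.03. TNFAIP3 (A20), a brake on NF-kB signalling, rose with either drug (SGI-110 0.54 ± 0.07, dasatinib 0.56 ± 0.07) and further from DMSO in the combination (1.06 ± 0.07) per the authors' deposited table. DEDD2, a death effector domain protein, rose by 0.69 ± 0.12 and BIRC3, a ubiquitin ligase of the inhibitor of apoptosis family, by 2.12 ± 0.47 with SGI-110 per the authors' deposited table. RIPK3, a kinase of necroptosis, was the fourth that rose and was not measurable in DMSO (adjusted p = 0.00522) per the authors' deposited table.

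PEA15, another death effector domain protein that binds FADD and CASP8, fell with SGI-110 (-0.58 ± 0.07) and with the combination (-0.52 ± 0.07) per the authors' deposited table. CASP8AP2 stood at -0.29 ± 0.06, TRAF2 at -0.31 ± 0.09 and CYLD at -0.22 ± 0.08 with SGI-110, all past the threshold, per the authors' deposited table. With dasatinib 2 of the 14 tested rose, TNFAIP3 and CUL3 (0.22 ± 0.07), and PEA15 fell (-0.18 ± 0.07) per the authors' deposited table. Of all tested genes, 17.8% rose and 13.2% fell with dasatinib. The combination had 4 higher and 3 lower than DMSO, and 4 higher and 1 lower than SGI-110, per the authors' deposited table. Of all tested genes, 29.8% were higher and 17.6% lower than DMSO, and 14.2% higher and 17.0% lower than SGI-110. RIPK1, a kinase of the receptor complex, stood at 0.49 ± 0.09 in the combination against SGI-110 and at -0.10 ± 0.09 with SGI-110 alone per the authors' deposited table. Its interaction was 0.48 ± 0.13 (computed Wald test, adjusted p = 0.00210), and CUL3 passed as well, at 0.25 ± 0.09 (adjusted p = 0.0496).

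Effector caspases and genes of the mitochondrial arm rose in 7 of 14 cases and fell in 3 with SGI-110, per the authors' deposited table. Beside them, 30.4% of all tested genes rose and 17.1% fell. The list's median, computed here from the deposited values, was 0.22. CASP6, an effector caspase gene, rose by 0.76 ± 0.12 with SGI-110 per the authors' deposited table. APAF1, the scaffold of the apoptosome, stood at 0.74 ± 0.06 under SGI-110, 0.89 ± 0.06 under dasatinib and 0.91 ± 0.06 under both per the authors' deposited table. DFFA, the inhibitor of the apoptotic nuclease, rose by 0.30 ± 0.05 and the nuclease gene DFFB fell (-0.52 ± 0.13) with SGI-110 per the authors' deposited table. CASP9, the initiator of the mitochondrial arm, stood at -0.24 ± 0.08 with SGI-110 and 0.19 ± 0.07 with the combination per the authors' deposited table. XIAP, an inhibitor of caspases that include CASP9, was lower with SGI-110 (-0.23 ± 0.10), dasatinib (-0.27 ± 0.10) and the combination (-0.41 ± 0.10) per the authors' deposited table.

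BID, the substrate through which CASP8 reaches the mitochondria, stood at 0.07 ± 0.09 with SGI-110 and fell in the combination (-0.30 ± 0.09, adjusted p = 0.00382) per the authors' deposited table. Of the 14 genes 6 were higher and 2 lower in the combination, and 2 were higher and 3 lower with dasatinib, per the authors' deposited table. Over all tested genes the shares were 29.8% and 17.6% in the combination, and 17.8% and 13.2% with dasatinib. In all, 6 of these 14 genes passed the interaction test, 2 upward and 4 downward (computed Wald test), among them APAF1 at -0.72 ± 0.09 (adjusted p = 1.87e-14) and BID at -0.53 ± 0.13 (adjusted p = 0.000576). Of all genes, 14.6% passed that test, 6.09% upward and 8.49% downward. Whether the share that passed differs between these lists was not tested.

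**Figure D5:**
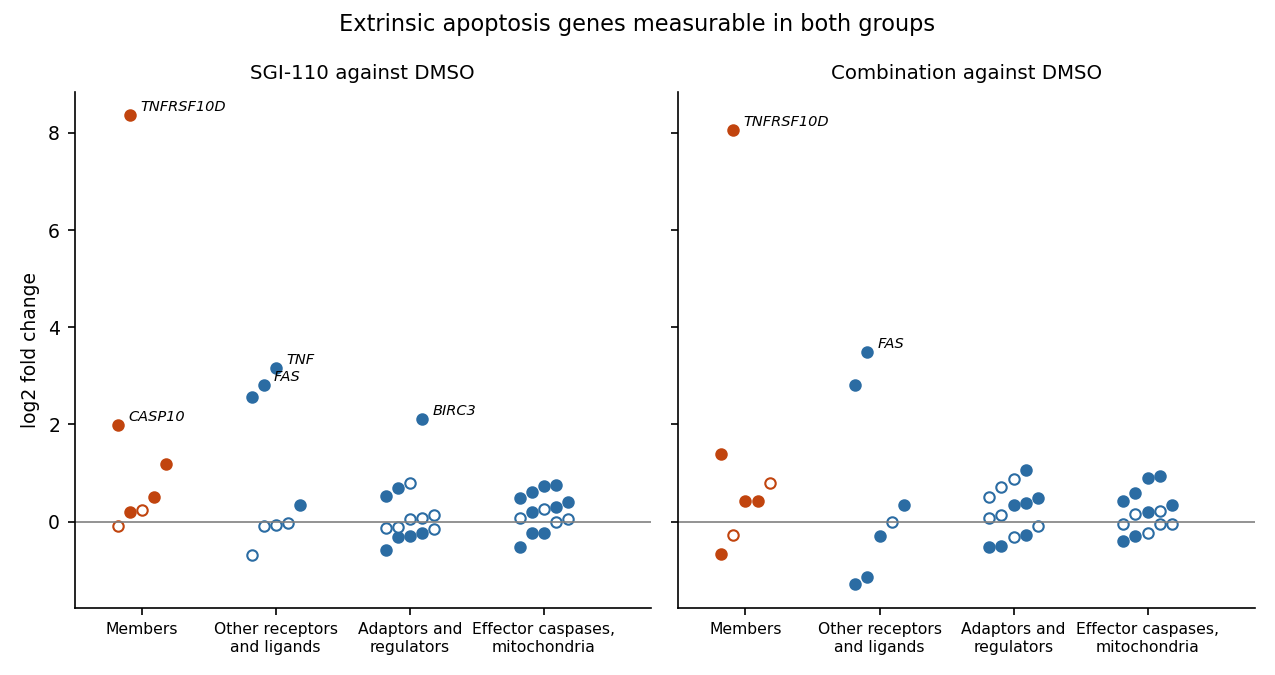
log2 fold change against DMSO (vertical axis) of the members (orange) and of the 3 other lists of extrinsic apoptosis genes (blue), for genes measurable in both groups, with SGI-110 (left) and the combination (right); 1 point is 1 gene and filled points passed an adjusted p under 0.05. TNFRSF10D stands apart at 8.36 and 8.05, and FAS, at 2.81 and 3.49, is also above most points.

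The genes most like a member over the 3 changes against DMSO were sought by Euclidean distance in log2. The search covered 11489 genes whose mean normalised count reached 100 and whose standard error was under 1 in all 3 comparisons. For CASP8 they were LTB4R2 (distance 0.0173), BTBD10 (0.0343) and SIRT1 (0.0356). For CFLAR they were ZNF850 (0.0480), DTX4 (0.0587) and SEMA7A (0.115). For TNFRSF10B they were DOCK6 (0.0636), YBX3 (0.0775) and SLC25A29 (0.0804). These distances are below or close to the standard errors of the members and rest on 4 treatments only, and none is given for TNFSF10, whose standard errors were at least 1.98.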

How the data were processed

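Poly(A)-selected, stranded libraries, 24 in all, were sequenced in pairs. The submitters' processing notes name GRCh38, HISAT2 2.1.0, Trim Galore 0.4.2, DESeq, DESeq2 1.16.1 and featureCounts 1.5.1, without roles. Model formula, cell line and filters: not given in the sources used here. Per the file headers, the signal baseMean deposited by the authors is the mean normalised count over libraries, lfcSE the standard error on the log2 scale, stat a Wald score, and pvalue and padj the p-value and its Benjamini-Hochberg adjustment. From the deposited tables, log2 changes were computed as stat times lfcSE. Calls use an adjusted p under 0.05. Deposited changes and errors also gave the interaction and the combination against dasatinib, with a Wald p adjusted over all 29639 genes (1 gene had a negative solved variance). This was tried on simulated data drawn from the same solved variances. That simulation cannot check the assumptions of a single line, a single fit or normal errors. The median gene moved by -0.02 to 0.05 log2 in the 4 deposited comparisons, so no further scaling was applied. Levels per treatment solve group variance = (1/level + dispersion)/(3 ln(2) squared) by non-negative least squares (scipy 1.17.1, numpy 2.4.6, pandas 2.3.3, Python 3.11.15). Gene positions and exon lengths are those of GENCODE 29. The members, lists and tests were chosen with earlier results of these data known. All members are named; from each other list, the called genes with the largest Wald statistic in each direction are named, with further called genes added after their values were seen. Some genes of the lists are counted but not reported here by name. Depth per library is unknown, and the deposited standard errors set the precision.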

Additional observations from a re-analysis of the deposited data

How the results depend on the processing

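No paired analysis was possible because the tables hold no value per library, and for the same reason no replicate could be left out. The count of members called for SGI-110 against DMSO and for the combination against DMSO stayed within 1.5 times, from 4 to 6 under the 6 alternatives, and the interaction had no call in any of them. For dasatinib against DMSO the count of 4 became 2 when genes whose mean normalised count was under 50 were dropped, a filter that leaves 5 members. For the combination against SGI-110 the count of 6 became 3 at an adjusted p under 0.01 and 3 with a t distribution of 8 degrees of freedom. When a change larger than 0.5 log2 was tested (Wald test), it became 0 both for that comparison and for dasatinib against DMSO, with 2 members each at an unadjusted p under 0.05. For the combination against dasatinib the count of 8 became 5 at a mean of at least 50, 4 for a change larger than 0.5 log2 and 4 with summed squared errors. No member reversed its direction past the threshold. Low counts limit TNFSF10, TNFRSF10A in DMSO and CASP10.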

Other observations

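The mean normalised count covers all 24 libraries of both lines, whereas the changes are read as those of 1 line, so the estimated levels of the 4 treatments can be set beside the deposited total. They made up 82.9% of the total for TNFRSF10D, 69.5% for CASP10, 68.5% for TNFRSF10B and 67.1% for TNFRSF10C. They made up 57.3% for FADD, 40.6% for CASP8, 32.1% for TNFRSF10A and 29.6% for CFLAR, beside a median of 56.3% over the genes solved at a mean normalised count of 20 or more, a set that CASP10 is not in. For 10.2% of that set the same sum was above the total, so the shares are approximate and were not tested.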
